A study of Oryza sativa with 8 samples.

Results

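The introgression line M202(Sub1) was compared with its parent M202 before any submergence, on 4 of the 8 arrays of the study. Both groups held 14 d old plants, of which only the aerial tissue was hybridised, and both were non-submerged and placed at day 0 by their titles. M202, a japonica rice cultivar, carries the label Sub1A -, and M202(Sub1), the same cultivar with an introgressed submergence tolerance locus, carries the label Sub1A +. Each genotype had 2 arrays, called replicates 1 and 2, and the other 4 arrays came from the same genotypes after 24 h under water. The plants were raised from pregerminated seed in greenhouse pots of soil, 25 to a pot. All probe sets other than the manufacturer's controls were used, 57258 in all, and 34355 of them passed a filter on mean signal over the 8 arrays and were tested. M202(Sub1) is 1 introgression line, and a difference from M202 belongs to that line with every donor segment it carries, not to Sub1A alone.

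Sub1A encodes an ethylene response factor, a transcription factor of the AP2/ERF family, that lies in a cluster with SUB1B and SUB1C on chromosome 9. It is known for restraining elongation growth and carbohydrate use in submerged rice leaves, acting downstream of ethylene and dampening the response to gibberellin. In plants in air its transcript is known to be low, so the comparison before submergence asks which other transcripts set the line apart from its parent. A microarray reads each transcript through short probes designed on a known rice sequence. In these data a lower transcript level therefore cannot be told apart from an allele that matches those probes less well. Nor can a higher level be told apart from an allele that matches them better. The 3 SUB1 genes were not analysed here because the gene table used does not name them.

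The signals are log2 values with a floor of 2.22 and a maximum of 16.9, and 37.3 to 38.8% of the values on each array lay at the floor. Over the 34355 tested probe sets, non-submerged arrays of the 2 genotypes correlated at 0.992 to 0.9928, and arrays within a group at 0.9976 to 0.9983. Hybridization control probe sets averaged 9.92 on M202 non-submerged replicate 1 and 10.39 to 10.67 on the other 7 arrays. Leaf markers were high on all 4 non-submerged arrays: RBCS-C, a small subunit of Rubisco, read 16.56 and 16.58 in M202 and 16.58 and 16.58 in M202(Sub1), and of 6 leaf markers only RBCS1 was near the floor, at 2.65 to 3.12. Log2 values were added up within each organ, so a marker at the floor still adds to the sum. Those of the 6 leaf markers came to 73.8 and 74.3 in M202 and 74.0 and 73.9 in M202(Sub1). The 5 root markers summed to 29.4 and 29.6 against 29.3 and 28.7, with the silicon exporter LSI2 at the floor and the silicon channel LSI1 near 10.0 on all 4. The 3 seed markers summed to 14.7 and 14.8 against 15.1 and 14.7, with the glutelin GLUB4 at the floor. The 3 floral markers summed to 14.8 and 14.4 against 14.0 and 14.8. No marker of any of the 4 organs passed the test between genotypes, and LSI2 and GLUB4 fell below the filter and were not tested. With 1.91% of all tested probe sets called, no call among so few markers is no result about the organs. With 2 arrays a group the smallest 2-sided exact permutation p is 0.333, so the tests below rest on limma's model over all probe sets, which borrows the spread from all 8 arrays. In whole shoots, fewer cells of a type and less RNA per cell cannot be told apart.

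Before submergence, 657 of 34355 probe sets differed between M202(Sub1) and M202 at a Benjamini-Hochberg adjusted p below 0.05, which is 1.91%; such probe sets are termed called. M202(Sub1) was higher in 235 (0.684%) and lower in 422 (1.23%). At least 2-fold differences made up 83 of the higher calls and 221 of the lower ones. The median difference over all tested probe sets was 0.0. The split of all calls turned with single arrays: it was 224 higher and 1051 lower without M202 replicate 1, 175 and 932 without M202 replicate 2, 1233 and 536 without M202(Sub1) replicate 1, and 1032 and 429 without M202(Sub1) replicate 2. Without either submerged M202(Sub1) array it was 120 higher against 275 or 276 lower. Among differences of at least 2-fold, lower calls stayed the more numerous in each of the 8 fits that leave out 1 array, at 54 to 106 higher and 167 to 230 lower. A fit to the 4 non-submerged arrays alone called 161 probe sets, 41 higher and 120 lower, and 139 of them were among the 657. Of the 58 calls described by name or place below, 39 missed the threshold in that fit, at adjusted p values of 0.0637 to 0.251. The 19 that kept it were BURP17, VDAC1, WNK7, NAS1, NAS2, LOC4351887, LOC4339940, LOC4346856, LOC9266439, LOC4346837, LOC4346816, LOC4346779, LOC4346773, LOC4346807, LOC4327118 and 4 probe sets with no gene given. In all 657 called probe sets both arrays of one genotype lay above both of the other, which was also so for 11866 of the 34355 tested (34.5%), so a lack of overlap adds nothing to a call.

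By chromosome, the calls were most frequent on chromosomes 12, 11 and 9. Over the 19464 tested probe sets paired with a single gene, 2.0% were called. On chromosome 12 the count was 75 of 992 (7.56%), on chromosome 11 it was 50 of 886 (5.64%), and on chromosome 9, which carries the SUB1 cluster, it was 52 of 1037 (5.01%). Chromosome 6 followed with 40 of 1544 (2.59%), and the other 8 chromosomes ranged from 0.501% on chromosome 10 to 1.47% on chromosomes 1 and 7. On each of the 3 leading chromosomes M202(Sub1) was more often lower than higher: 53 against 22 on chromosome 12, 36 against 14 on chromosome 11, and 36 against 16 on chromosome 9. Together these 3 chromosomes held 15.0% of the tested probe sets and 45.5% of the calls, a share that ranged from 29.3 to 60.5% over the alternative fits. The bar plot by chromosome shows the same counts.

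**Figure D1:**
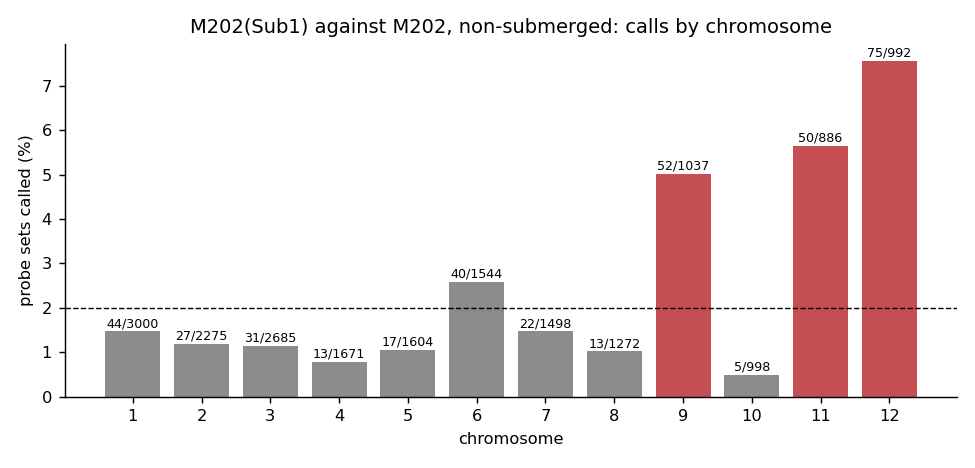
Share of tested probe sets called between M202(Sub1) and M202 before submergence (y axis, percent) on each of the 12 chromosomes (x axis), with called over tested counts above the bars and the share over all probe sets paired with 1 gene, 2.0%, as a dashed line. Chromosomes 9, 11 and 12 (red) reached 5.01, 5.64 and 7.56%, and the other bars lay at or below 2.59%.

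Within chromosomes, part of the calls lay in runs of neighbouring genes. Chromosomes were divided into stretches of 100 genes in the order of the gene table, and stretches with at least 20 tested probe sets and at least 10% called were termed dense, a rule set after the values were seen. Of 375 stretches with enough probe sets, 24 were dense and joined into 9 runs. They held 167 of 971 probe sets called (17.2%), against 222 of 18493 (1.2%) elsewhere and 268 of 14891 (1.8%) among probe sets with no single gene given. The 167 made up 42.9% of the 389 calls paired with 1 gene, in stretches that held 4.99% of such tested probe sets. Since calls chose the stretches, those shares are a description. The widest run covered 700 genes of chromosome 11, from LOC9268937 to LOC4350038, with 42 of 279 probe sets called, 13 higher and 29 lower. A run of 500 genes on chromosome 12, from LOC4351617 to LOC4351987, had 34 of 204 called, 7 higher and 27 lower. A run of 400 genes on chromosome 9, from LOC4346609 to LOC4346865, had 32 of 130 called, 11 higher and 21 lower. A run of 200 genes near one end of chromosome 6, from LOC4339914 to LOC4340084, had 26 of 143 called, 6 higher and 20 lower. The 5 other runs were 3 on chromosome 12, 1 on chromosome 6 and 1 on chromosome 7, with 4 to 12 calls each.

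**Figure D2:**
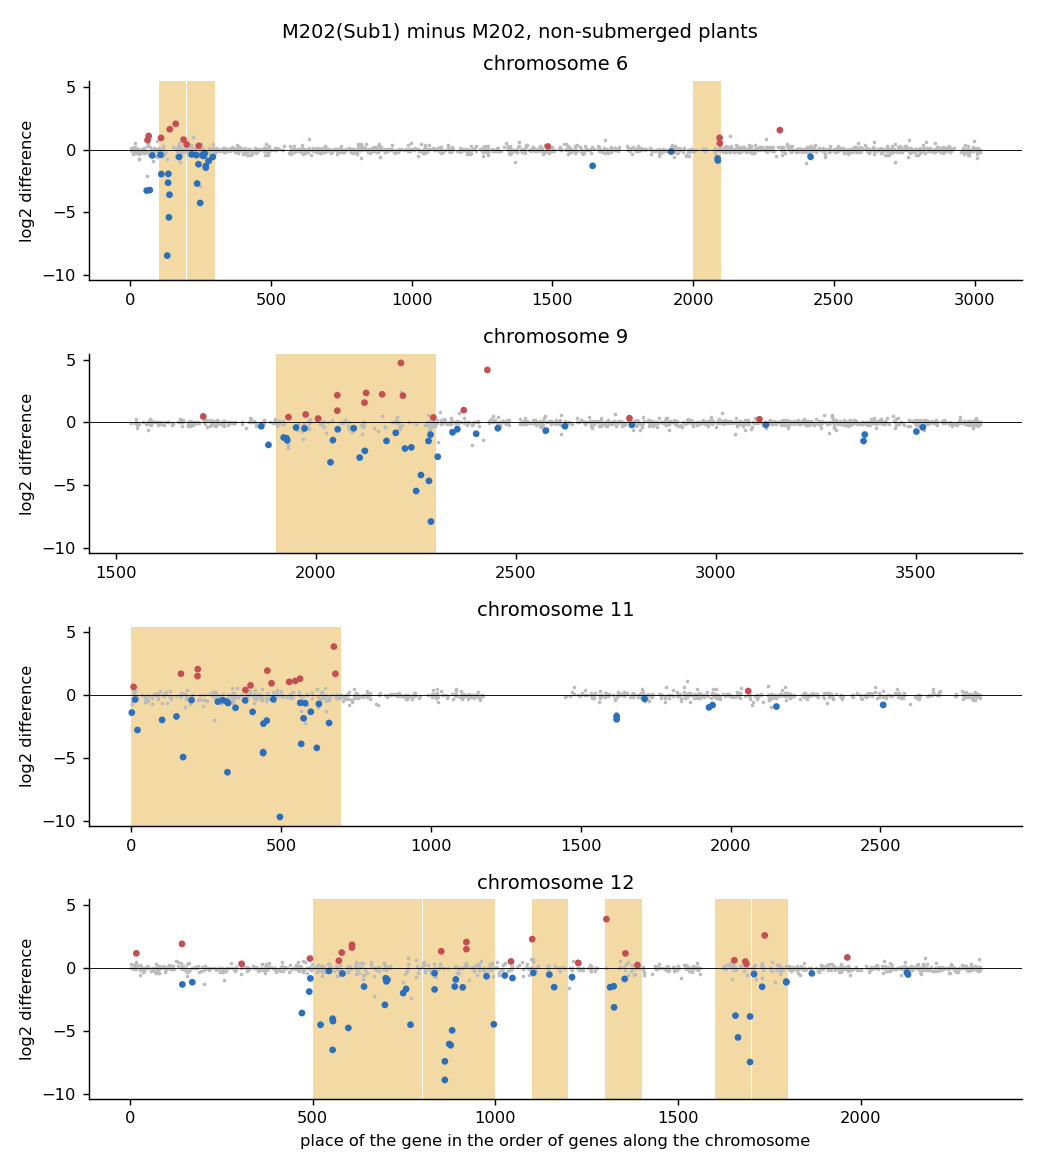
Log2 difference M202(Sub1) minus M202 in non-submerged plants (y axis) for each tested probe set, by the place of its gene in the gene order of chromosomes 6, 9, 11 and 12 (x axis). Grey points were not called, red points were called higher and blue points lower in M202(Sub1), and tan bands mark dense stretches. Calls crowd into the bands, where differences reach -9.7, while grey points outside them stay close to 0.

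The same places were then read on the submerged arrays. Their values do not enter the differences before submergence, but they entered the filter and the estimate of spread behind the calls that chose the stretches, so the reading is not independent of that choice. After 24 h under water 398 of the 971 probe sets in dense stretches differed between the genotypes (41.0%), against 4936 of 18493 elsewhere (26.7%). Differences of at least 2-fold were reached by 161 of 971 (16.6%) in dense stretches and by 597 of 18493 (3.23%) elsewhere. Among probe sets not called before submergence, 262 of 804 (32.6%) in dense stretches and 4815 of 18271 (26.4%) elsewhere differed. At least 2-fold differences were reached there by 73 of 804 (9.08%) and 560 of 18271 (3.06%). The dense stretches thus held a larger share of genotype differences on these arrays as well, and the difference in shares was not tested.

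Counted apart from the fixed division above, the 100-gene stretch of chromosome 9 with the largest share of calls ran from LOC4346773 to LOC4346837. It was chosen after its values were seen. In it 9 of 27 probe sets were called (33.3%), 3 higher and 6 lower, and all 9 kept their direction and their call under submergence. LOC4346807 was among the genes raised most in the line: it read 2.83 and 2.66 in M202 and 7.61 and 7.37 in M202(Sub1), a difference of 4.74 ± 0.28 (SE, n = 2 and 2, adjusted p = 0.00304). LOC4346773 read 8.50 and 8.53 against 10.84 and 10.66, a difference of 2.24 ± 0.08, although its second probe set, at 3.14 to 3.99, differed by 0.52 and was not called. HATB, named for a type B histone acetyltransferase, read 4.12 and 4.05 against 6.12 and 6.31 (difference 2.13 ± 0.24, adjusted p = 0.0248).

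The 6 lower calls in that stretch included LOC4346832, which read 8.57 and 8.52 in M202 and 3.59 and 2.57 in M202(Sub1), a difference of -5.46 ± 0.34. Its other probe set lay near the floor in both genotypes, at 2.24 to 2.55. LOC4346837 read 6.48 and 6.46 in M202 and 2.29 and 2.27 in M202(Sub1), and under submergence it rose to 11.89 and 12 in M202 but read 2.77 and 3.92 in M202(Sub1). Smaller differences were found for LOC4346816 (-2.08), LOC4346824 (-1.99) and LOC4346779 (-1.47). The calls of HATB, LOC4346824 and LOC4346837 were lost when 6, 6 and 2 of the 8 arrays, respectively, were left out in turn, at adjusted p values of 0.0572 to 0.0951, 0.0598 to 0.0835 and 0.0514.

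Several transcripts that were abundant in one genotype were at or close to the floor in the other. BURP17, a member of the plant-specific BURP-domain family, read 12.06 and 12.15 in M202 and 2.22 and 2.60 in M202(Sub1). The difference was -9.70 ± 0.13 (adjusted p = 2.11e-05), and it was -11.7 under submergence. Its gene lies in the dense run of chromosome 11. LOC4351887 on chromosome 12 read 11.15 and 11.12 in M202 and 2.22 on both M202(Sub1) arrays, and its second probe set read 9.55 and 9.75 against 2.22 and 2.22. The difference was -8.92 ± 0.04 for the first. Under submergence both of its probe sets were at 2.22 on all 4 arrays, where no difference between the genotypes can be read. With 6 of 8 arrays at the floor the first probe set passed the filter only through the M202 arrays at day 0, as did 25 of the 657 calls through their higher group, and its SE draws on groups with no spread. A difference measured against the floor is a distance to the lowest value the scale holds.

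The other runs had leading genes of the same kind. LOC4339940 on chromosome 6 read 11.82 and 11.66 in M202 and 3.29 and 3.29 in M202(Sub1), a difference of -8.44 ± 0.12. LOC4346856 on chromosome 9 read 10.42 and 10.19 against 2.44 and 2.37 (-7.90 ± 0.13). LOC9266439 on chromosome 12 read 9.80 and 9.66 against 2.27 and 2.22 (-7.48 ± 0.09), and its second probe set differed by -3.86. Each of these 3 genes differed by -6.56 to -7.71 under submergence. LOC4352195 on chromosome 12 was higher in M202(Sub1), at 6.79 and 7.31 against 2.50 and 3.80 (3.90 ± 0.55), but its call was lost in 7 of the 8 fits that leave out 1 array, at adjusted p values of 0.0832 to 0.143. LOC4352055, also on chromosome 12, read 4.29 and 4.75 against 2.22 on both M202 arrays (2.30 ± 0.17). The weaker runs were led by LOC4342492 on chromosome 7 (-2.34 ± 0.28) and LOC4341420 on chromosome 6 (0.94 ± 0.10), whose calls were lost in 6 and 5 of those fits, at adjusted p values of 0.0584 to 0.0924 and 0.0532 to 0.0806.

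Outside the runs, LOC4327118 on chromosome 1 read 2.28 on both M202 arrays and 9.51 and 9.41 in M202(Sub1), a difference of 7.19 ± 0.07 that grew to 8.74 under submergence. Differences of that size were also found among probe sets with no gene given. The one raised most in the line read 2.88 and 2.88 against 10.50 and 10.46 (7.60 ± 0.19), and the next read 2.22 and 2.23 against 7.69 and 8.14 (5.69 ± 0.18). In the other direction, one read 12.18 and 12.08 in M202 against 2.47 and 2.47 (-9.66 ± 0.11), and another read 11.67 and 11.83 against 2.64 and 2.64 (-9.11 ± 0.14). LOC4327118 read 2.28 on every M202 array of both days, and the probe set at 5.69 read 2.22 to 2.23 there. Their SEs, like that of LOC4352055, at 2.22 on every M202 array, thus draw on groups with little or no spread. Counted over all 657 calls, 14 probe sets at a level of at least 6 in M202 were at the floor on both M202(Sub1) arrays, and 6 showed the reverse. Of these, 7 and 2 kept that state under submergence.

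Where a gene had several probe sets, often only some were called, which does not show that the probe sets differ from each other. In the dense stretches 33 genes with several tested probe sets had at least 1 called, and all were called for 8 of them. Elsewhere this held for 2 of 59 genes. VDAC1, a voltage-dependent anion channel of the mitochondrial outer membrane, is an example from the chromosome 9 run: one probe set read 8.72 and 8.71 in M202 and 4.08 and 4.04 in M202(Sub1) (-4.66 ± 0.34), while its 2 other probe sets, at 9.55 to 10.64, differed by -0.70 and -0.04 and were not called. For WNK7, a protein kinase gene of the chromosome 11 run, one probe set differed by -1.97 ± 0.10 and the other by -0.61 (adjusted p = 0.267). The NAC-family transcription factor gene NAC5, in the same run, differed by -0.63 ± 0.06 in its brightest probe set, which was called, and by -2.24 and -1.80 in its dimmer ones, which were not (adjusted p = 0.0702 and 0.0515). The NAC5 call was lost in 3 fits that leave out 1 array, at adjusted p values of 0.0575 to 0.0582. Further named genes of the dense stretches, beside HATB, BURP17 and the phosphatase genes PP2C68 and OsPP2C67 described with their families, were TDL1A, for a small secreted anther protein, at -1.45 ± 0.20, and the ascorbate peroxidase gene APX6 at -0.23 ± 0.03. Higher were PPT1, for a plastid phosphoenolpyruvate translocator, at 0.63 ± 0.06, and the glutaredoxin gene GRXC15 at 0.33 ± 0.04. The calls of these 4 were lost in 4 to 7 of the fits without 1 array, with adjusted p values of up to 0.149.

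The nicotianamine synthase genes were lower in M202(Sub1). Nicotianamine chelates iron and other metals and is the precursor of the phytosiderophores that grasses release to take up iron. NAS1 read 7.85 and 7.90 in M202 and 4.20 and 4.45 in M202(Sub1), a difference of -3.55 ± 0.26 or 11.7-fold (adjusted p = 0.00567). NAS2 read 6.71 and 6.85 against 4.62 and 4.62, a difference of -2.16 ± 0.07 (adjusted p = 0.000447). NAS3, the most abundant of the 3, read 12.08 and 12.10 against 11.71 and 11.63, a difference of -0.42 ± 0.04 (adjusted p = 0.0107). The NAS3 call was lost in the fit to the 4 non-submerged arrays (adjusted p = 0.155). NAS1 and NAS2 are close copies that lie next to each other in the gene order of chromosome 3, so their probe sets may share signal. All 3 genes were also lower in the line under submergence, by differences of -2.88, -1.34 and -0.74.

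Of 19 tested genes in the iron list, 4 were lower, none was higher and the median difference was -0.14. Over all genes, counted by 1 probe set each, 329 of 16032 were called (2.05%), with a median of -0.02. The fourth was the basic helix-loop-helix factor gene IRO3, at -0.21 ± 0.03 (adjusted p = 0.0474), a call lost in all 8 fits that leave out 1 array, at adjusted p values of 0.0546 to 0.13. The nicotianamine aminotransferase gene NAAT1, for the next step of the pathway, read 8.97 and 8.97 against 8.45 and 8.40, a difference of -0.55 that did not pass the test (adjusted p = 0.172). The iron transporter gene IRT1 differed by -0.14 (adjusted p = 0.824), and all 14 YSL and IRT transporter genes of the list lay between -0.37 and 0.01 with none called. Among metal transporters outside the list, chosen after their values were seen, Nramp1 read 11.54 and 11.48 against 10.64 and 10.52 (-0.93 ± 0.06, adjusted p = 0.00416), a call lost in the fit to the 4 non-submerged arrays at 0.0958, and the vacuolar iron transporter gene VIT2 differed by -0.46 ± 0.07, a call lost in all 8 fits without 1 array, at adjusted p values of 0.068 to 0.127.

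Of 5 tested dehydrin and late embryogenesis abundant (LEA) genes, whose proteins accumulate in drying seeds and in water-stressed or abscisic acid-treated tissue, 2 were lower and 3 did not pass the test, with a list median of -0.22. PM19L, for a small membrane protein and not a member of that list, is described beside them as one of the largest differences. It read 8.32 and 8.20 in M202 and 5.10 and 4.67 in M202(Sub1), a difference of -3.38 ± 0.20 (adjusted p = 0.00284). LEA3-1 read 6.82 and 6.38 against 3.83 and 2.84 (-3.26 ± 0.35, adjusted p = 0.0196). The dehydrin gene RAB21 read 8.79 and 8.54 against 6.90 and 7.09 in one probe set (-1.67 ± 0.12, adjusted p = 0.00531) and 6.30 and 5.88 against 4.03 and 4.31 in the other (-1.92 ± 0.16). The other 3 genes of the list, LIP1, LIP9 and LIP1P-2, differed by 0.08, -0.17 and -0.22 and did not pass the test. Over all genes 2.05% were called, and whether 2 calls among these 5 genes exceed that share was not tested. With so few members, the 2 calls describe LEA3-1 and RAB21 and not the family. Under submergence PM19L, LEA3-1 and RAB21 were at 2.22 to 3.99 in both genotypes, and their differences of -0.14, -0.41 and at most 0.07 in size did not pass the test. The LEA3-1 call was lost in 6 of the 8 fits without 1 array, at adjusted p values of 0.0526 to 0.0825, and that of the second RAB21 probe set in 2, at 0.0526 and 0.0527. PM19L, LEA3-1 and RAB21 also missed the threshold in the fit to the 4 non-submerged arrays, with adjusted p values of 0.0889, 0.235 and 0.13 to 0.191.

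Protein phosphatases of type 2C, some of which hold back abscisic acid signalling, gave 3 lower calls among 54 tested genes (5.56%) and none higher, where 2.05% of all genes were called in either direction. PP2C68 read 5.27 and 5.92 in M202 and 2.80 and 2.80 in M202(Sub1) (-2.80 ± 0.27, adjusted p = 0.0146), and under submergence it read 2.24 to 2.80 in both genotypes. Its call was lost in 3 of the 8 fits without 1 array, at adjusted p values of 0.053 to 0.0641. OsPP2C67 read 8.66 and 8.56 against 7.27 and 7.12 (-1.41 ± 0.10, adjusted p = 0.0058) and differed by -1.51 under submergence, but its call was lost in the fit to the 4 non-submerged arrays (adjusted p = 0.0875). Both genes lie in the chromosome 9 run. OsPP2C27, on chromosome 2, differed by -0.46 ± 0.05, a call lost in 5 of those fits at adjusted p values of 0.0504 to 0.0605. The abscisic acid list holds receptor, SAPK kinase and hormone turnover genes and the gene TRAB1. In it 0 of 15 genes were called, and the median difference was -0.04. The epoxidase gene ZEP, an early step of abscisic acid synthesis, read 13.37 and 13.35 against 13.34 and 13.32.

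**Figure D3:**
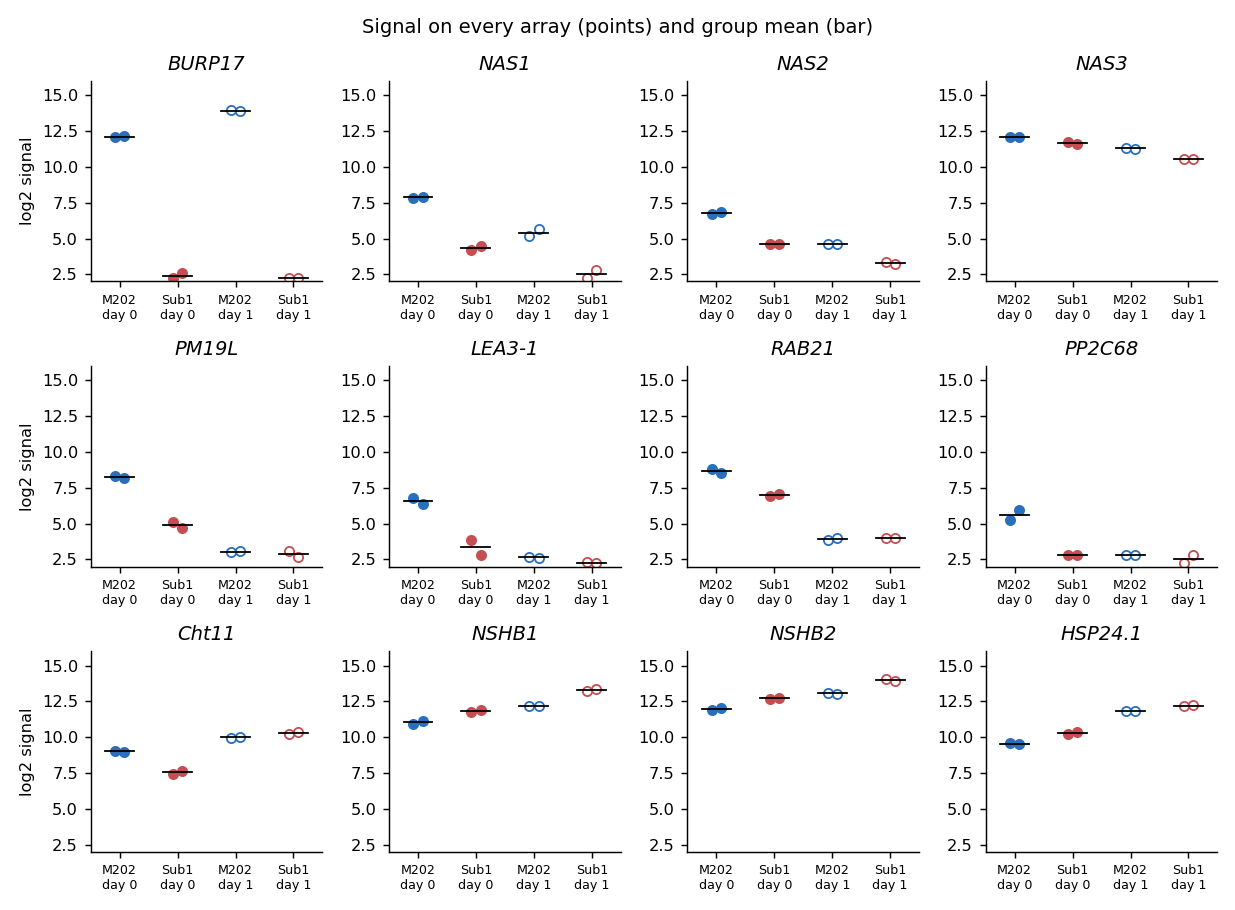
Log2 signal (y axis) of 12 genes on each of the 8 arrays, as points with the group mean as a bar, by genotype and day (x axis; filled, non-submerged at day 0; open, after 24 h submergence at day 1; blue, M202; red, M202(Sub1)). All 12 genes were called at day 0, and for PM19L, LEA3-1, RAB21 and PP2C68 both genotypes lie below 4 at day 1.

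The remaining named genes lower in M202(Sub1) had varied roles. The chitinase gene Cht11 read 9.05 and 8.97 against 7.46 and 7.66 (-1.45 ± 0.09, adjusted p = 0.00363), and under submergence the genotypes read 9.93 and 10.04 against 10.24 and 10.39. Its adjusted p was 0.101 in the fit to the 4 non-submerged arrays. It was the 1 call among 12 chitinase and pathogenesis-related genes. D10L, for a carotenoid cleavage enzyme related to those of strigolactone synthesis, was dim, at 3.87 and 4.09 against 2.37 and 2.35 (-1.62 ± 0.08). The water channel gene PIP1-1 read 15.33 and 15.29 against 14.97 and 14.93 (-0.36 ± 0.04), the 1 call among 21 aquaporin genes, lost in 3 of the 8 fits without 1 array at adjusted p values of 0.0527 to 0.0557. RPS15 was the 1 call among 24 ribosomal protein genes (-0.67 ± 0.08), lost in 6 of those fits at 0.0514 to 0.0934. With 2.05% of all genes called, 1 call in a list of such size says nothing particular about the list.

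Of the 12 largest differences among named genes higher in M202(Sub1), the 11 other than HATB lay between 0.33 and 0.81, under 2-fold. MS, the malate synthase gene of the glyoxylate cycle, read 6.59 and 6.50 in M202 and 7.36 and 7.35 in M202(Sub1) (0.81 ± 0.05, adjusted p = 0.00421). Under submergence it read 14.94 and 14.81 in M202 and 14.59 and 14.59 in the line. Its adjusted p was 0.0911 in the fit to the 4 non-submerged arrays. The non-symbiotic haemoglobin genes NSHB1 and NSHB2, whose products scavenge nitric oxide and are induced by low oxygen, were both higher. NSHB2 read 11.90 and 12.04 against 12.66 and 12.77 (0.74 ± 0.07, adjusted p = 0.0121), and NSHB1 read 10.95 and 11.15 against 11.79 and 11.88 in its brightest probe set (0.78 ± 0.09, adjusted p = 0.0236). The 2 dimmer NSHB1 probe sets differed by 0.37 and 0.25 and were not called. The haemoglobin genes are close relatives, so some of their signal may be shared. Both were also higher in the line under submergence, by 1.11 for the brightest NSHB1 probe set and by 0.94 for NSHB2. The dimmer NSHB1 probe sets were not both higher there. They read 7.44 and 7.57 in M202 against 7.11 and 6.95, and 7.81 and 7.73 against 8.01 and 7.18. Without 1 array the call of NSHB1 was lost in 6 of 8 fits, at adjusted p values of 0.0504 to 0.0872, and that of NSHB2 in 2, at 0.0538 and 0.0539.

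Among 40 heat shock protein and factor genes 2 were called (5.0%, against 2.05% of all genes), both higher in the line, with a list median of 0.01. HSP24.1, a small heat shock protein gene, read 9.56 and 9.53 in M202 and 10.24 and 10.38 in M202(Sub1) (0.76 ± 0.05, adjusted p = 0.00456), a call lost in the fit to the 4 non-submerged arrays at 0.13. HSP18.0 differed by 0.17 ± 0.02 in its brightest probe set, at 11.29 and 11.28 against 11.47 and 11.46, while its 2 others gave -0.07 and -0.38 without passing the test. The HSP18.0 call was lost under 5 of 16 alternatives, among them centring on spike-in controls (0.14) and quantile normalization (0.20). HSFA2D, named as a heat stress factor, differed by 0.48 ± 0.04 in one probe set and by 0.06 in a brighter one. The thioredoxin gene TRXH1 (0.45), the UDP-glucose dehydrogenase gene UGD4 (0.41), the homeobox factor gene Hox13 (0.37), the protein disulfide isomerase-like gene PDIL5-1 (0.34) and the auxin response repressor gene IAA2 (0.26) completed the higher group. The calls of TRXH1, UGD4, PDIL5-1 and IAA2 were lost in 5 to 8 of the 8 fits without 1 array, with adjusted p values of up to 0.112.

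Of 72 tested genes in 6 lists for the pathways with which the SUB1 locus is most often linked, 0 were called before submergence. With 2.05% of all genes called, a count of 0 or a few in 72 lies near the background and is no result about those pathways. Of the 3 tested genes of ethanol fermentation, the pyruvate decarboxylase gene PDC2 read 10.17 and 10.23 in M202 and 10.11 and 10.12 in M202(Sub1) (-0.09 ± 0.03, adjusted p = 0.413), while PDC1 and the alcohol dehydrogenase gene Adh2 lay at 2.22 to 2.52 in both. Under submergence all 3 were higher in the line, with a median of 2.89. No gene was called among 18 of glycolysis, 14 of sucrose and starch breakdown, 9 of ethylene, 19 of gibberellin and 9 ERF and DREB factor genes. The gibberellin repressor gene SLR1 read 8.78 and 8.90 against 8.86 and 8.71, its relative SLRL1 read 3.95 on all 4 arrays, and the ethylene receptor gene ERS1 read 10.79 and 10.66 against 10.58 and 10.64. The same count of 0 was found for 10 genes of chlorophyll synthesis, 5 of chlorophyll breakdown, 5 of photosystems and light harvesting, 20 expansins, 22 of lignin synthesis and 27 cellulose synthases.

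In all, 31 lists were examined, with 563 distinct tested genes, of which 17 were called (3.02%, against 2.05% of all genes). Of the lists, 10 held at least 1 called gene and 21 held none. In those 21 lists the members differed by -0.79 to 1.43, and the smallest adjusted p was 0.0541, for ERF25. The member with the highest mean level in each differed by -0.11 to 0.12. Over all 34355 probe sets 4009 had an unadjusted p below 0.05, so a gene that missed the adjusted threshold was not shown to be alike in the genotypes.

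**Figure D4:**
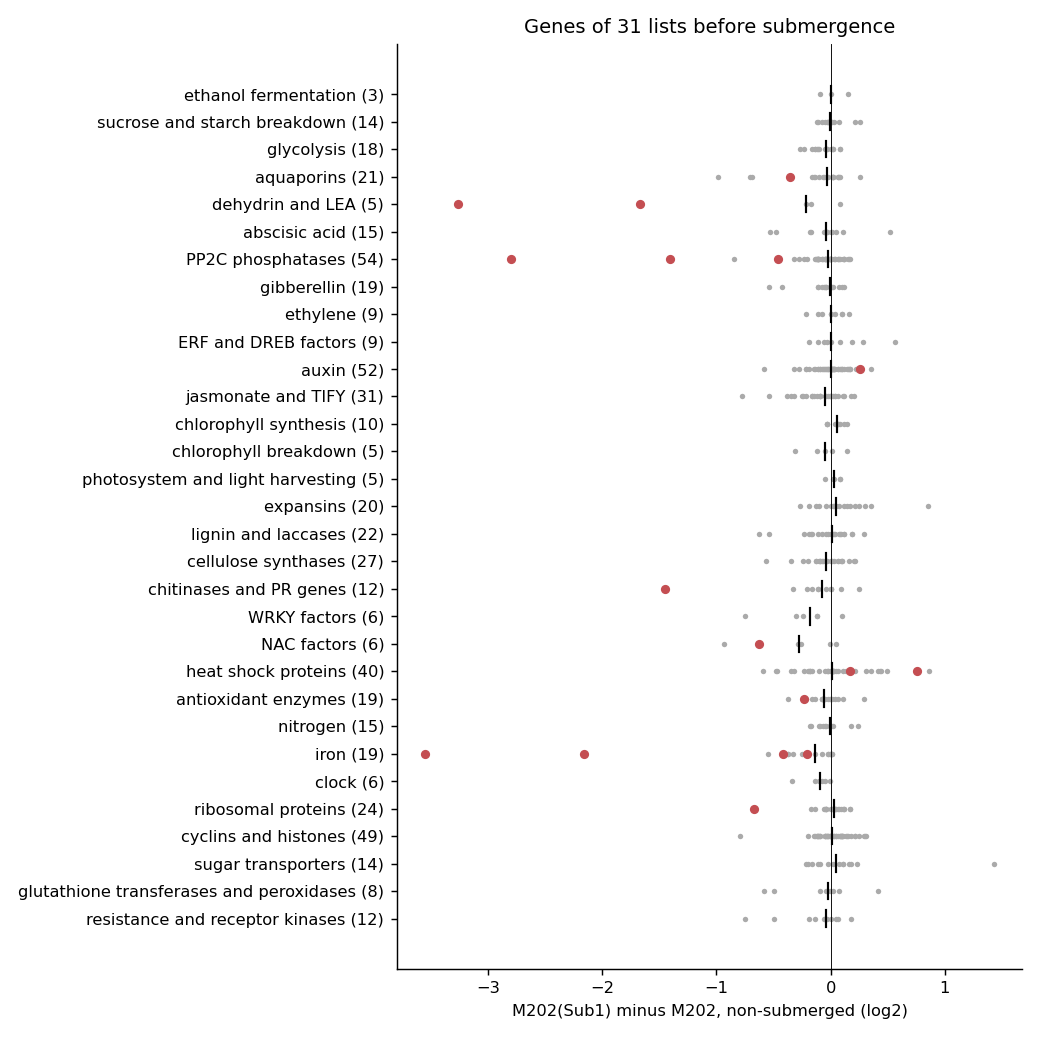
Log2 difference M202(Sub1) minus M202 before submergence (x axis) for the tested genes of 31 lists (rows, number of genes in brackets), 1 point a gene, red where called, with the list median as a black bar. Called genes lie mainly left of 0, led by NAS1 at -3.55 and LEA3-1 at -3.26, and list medians lie between -0.27 and 0.06.

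The called differences were followed on the 4 submerged arrays, where M202(Sub1) was higher in 3638 of 34355 probe sets (10.6%) and lower in 3485 (10.1%). Of the 657 probe sets called before submergence, 359 (54.6%) were called in the same direction after it, 57 in the opposite direction and 241 were not called. In the dense stretches 124 of 167 (74.3%) kept their direction and 12 turned, against 88 of 222 (39.6%) and 33 elsewhere. Differences were also larger in the dense stretches, with a median size of 1.47 against 0.55 elsewhere, so place and size are mixed in those shares. Among differences of at least 2-fold, 84 of 108 (77.8%) kept their direction in dense stretches and 25 of 43 (58.1%) elsewhere. Calls on the submerged arrays also use the estimate of spread that entered the 657 calls. Of the 304 probe sets that differed by at least 2-fold, 224 (73.7%) kept their direction and 6 turned. The interaction of genotype and submergence, which tests whether the difference itself changed, was called for 4223 of 34355 probe sets (12.3%) and for 367 of the 657. The interaction shares the non-submerged arrays with the calls counted here, so those 367 are not independent of them.

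**Figure D5:**
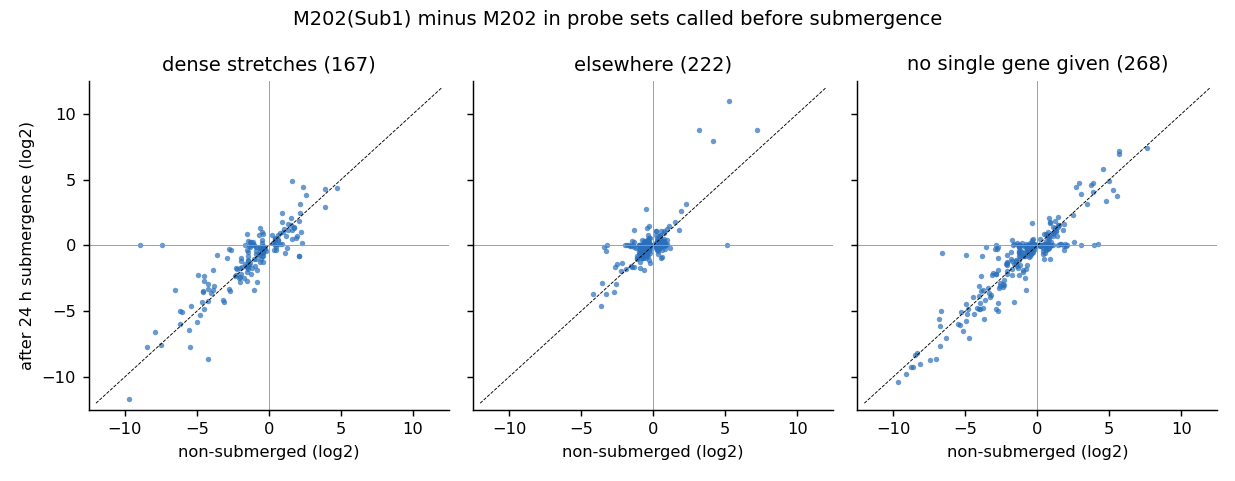
Log2 difference M202(Sub1) minus M202 in non-submerged plants (x axis) and after 24 h submergence (y axis) for the probe sets called before submergence, in dense stretches (167), elsewhere (222) and with no single gene given (268). The dashed line marks equal differences, and points on the horizontal line at 0 had no measured difference under submergence, such as LOC4351887 at -8.92, which was at the floor in both genotypes there.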

How the data were processed

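The authors deposited log2 expression values, 1 per probe set and array, from Affymetrix rice arrays hybridised with RNA of whole aerial tissue. GCRMA and MAS5 appear in the submitters' processing notes with no role, order or version. The table's common floor is the form that GCRMA gives. No genome build is given in the sources used here. Groups and replicate numbers came from the sample labels. Replicates are described as independent biological ones in the design text, but what set them apart is not stated, so p-values measure the spread between these samples.

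The deposited values were used without further normalization. The 123 control probe sets were left out, and probe sets whose mean over 8 arrays was below the 40th percentile (2.23) were not tested. All 4 groups were fitted in 1 model (limma 3.58.1, R 4.3.3, lmFit and eBayes with an intensity trend, 4 residual degrees of freedom), with contrasts for genotype before and after submergence and their interaction. Calls required a Benjamini-Hochberg adjusted p below 0.05 over all tested probe sets. SEs are moderated. The step was also run on simulated data, with independent normal values around a single mean per probe set and set genotype changes. Those data held no submergence effect and no floor, so the run does not cover these features. Arrays have no read depth, and 2 arrays a group limit the precision.

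Probe sets were named through the platform annotation: 22436 had 1 gene, 95 had several and 34727 had none listed. Gene symbols, chromosomes and gene order came from the RefSeq gene table of assembly ASM3414082v1, where all 17905 genes matched and 2447 had a name. No sequence is given, since none was in the sources used here. Named genes were the 12 largest called differences in each direction among genes with a name, up to 4 called members of each list (otherwise its most abundant member), the called genes of at least 2-fold in the chromosome 9 stretch, the leading gene of each dense run, and the 3 largest differences in each direction among probe sets without a gene symbol. The members, lists and rules were chosen with earlier results of these data known.

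The alternatives were a fit to 4 arrays, no filter and a filter at the 60th percentile, groups at the floor left out, quantile normalization, centring on poly(A) spike-ins, no intensity trend, a replicate block and leaving out each array.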

Additional observations from a re-analysis of the deposited data

Results flagged for a closer look

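For 367 of the 657 probe sets called before submergence, the genotype difference itself changed under submergence by the interaction test (adjusted p below 0.05). The interaction is the log2 difference M202(Sub1) minus M202 under submergence less that before it.

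Among genes lower in M202(Sub1) before submergence, the interaction was above 0, so that the difference shrank or turned, for LOC4351887 (8.92, with both genotypes at the floor under submergence), PM19L (3.24), LEA3-1 (2.85), PP2C68 (2.52), PCL1 (2.46), RAB21 (1.91 and 1.73 in its 2 probe sets), Cht11 (1.78), D10L (1.59), LOC4346856 (1.34), WNK7 (1.01), NAS2 (0.82), VIT2 (0.58) and OsPP2C27 (0.44). Under submergence PM19L, LEA3-1, PP2C68, D10L and the RAB21 probe set at 1.91 read 2.22 to 3.09 in both genotypes. So near the floor, little difference between the genotypes can be read. The interaction was below 0, so that the difference grew, for LOC4346837 (-4.41), LOC4346832 (-2.26), BURP17 (-2.01), Nramp1 (-0.80), NAC5 (-0.61), IRO3 (-0.33), NAS3 (-0.32) and APX6 (-0.22). These values are for called probe sets only. The 2 dimmer NAC5 probe sets went the other way. The first read 5.65 and 5.45 in M202 against 2.99 and 3.63 before submergence, and 2.9 and 3.79 against 2.82 and 2.59 under it. The second read 8.34 and 8.85 against 6.49 and 7.1, then 6.93 and 6.78 against 6.37 and 6.46. In the second WNK7 probe set the difference did not shrink.

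Among genes higher in M202(Sub1) before submergence, the difference grew for LOC4327118 (1.56), a probe set with no gene given (1.51), HSP18.0 (0.96), LOC4341420 (0.86) and IAA2 (0.29). It shrank or turned for LOC4352055 (-2.12), LOC4346773 (-1.19), MS (-1.09), Hox13 (-0.77), GRXC15 (-0.66), UGD4 (-0.59), PDIL5-1 (-0.43) and HSP24.1 (-0.39). These values too are for called probe sets only. The second LOC4346773 probe set did not shrink: it read 3.69 and 3.14 against 3.99 and 3.88, then 3.67 and 3.46 against 4.23 and 4.48. The 2 other HSP18.0 probe sets, at -0.07 and -0.38 before submergence, were higher in the line under it. LOC4352055 was also near the floor in both genotypes under submergence, at 2.22 to 2.52.

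Among the most abundant members of lists with no call before submergence, the interaction was 1.51 for PDC2, 1.13 for the histone gene H2B.5, 0.27 for GAPC1 and XA5, -0.24 for CESA3, -0.28 for TIFY3, -0.39 for RGS31, -0.54 for GID2 and -0.74 for SUS1. The RGS31 value is for its brighter probe set. The dimmer one was higher in the line under submergence, at 6.91 and 6.66 in M202 against 7.1 and 7.16.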

How the results depend on the processing

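Before submergence the count of 657 calls became 161 in the fit to the 4 non-submerged arrays, and it ranged from 395 to 1769 when 1 array was left out. In the other 7 alternatives it lay between 462 and 809. Centring on spike-ins gave 221 higher and 588 lower calls, with the median of all probe sets at -0.036. Of the 304 differences of at least 2-fold, 118 were still called with 4 arrays and 217 to 304 under the other alternatives. Of the 657, 119 were called in every alternative that tested them, 24 higher and 95 lower, and 46 of these lay in dense stretches. Of 58 named calls, 18 held in every alternative and 33 held whichever array was left out, and no named difference reversed. Under submergence the count of 7123 became 10976 with spike-in centring and 5192 to 6143 without 1 array. The interaction count of 4223 became 2650 with no filter and 3096 to 4162 without 1 array. Replicate numbers did not pair the samples: correlations of same-numbered deviations between groups ran from 0.008 to 0.178, with 1 of 6 above 0.1, and the replicate block gave 462 calls before submergence. Where leaving out an array leaves a group with 1 sample, that sample is assumed to vary like the others. Signal near the floor limits what could be seen. In 56 of the 657 calls a non-submerged group lay within 0.005 of that probe set's own lowest value. Only probe sets whose lowest value was below 3 entered that count.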

Other observations

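The clock list held 6 genes and no call before submergence, with differences from -0.34 for PRR1 (adjusted p = 0.0864) to -0.01 for LHY and a median of -0.09. A further clock gene, PCL1, chosen after its values were seen, was called lower: it read 6.88 and 6.89 in M202 and 5.50 and 5.68 in M202(Sub1), a difference of -1.29 ± 0.09 (adjusted p = 0.00564). Under submergence PCL1 was higher in the line, at 8.03 and 7.97 against 6.93 and 6.74. In the fit to the 4 non-submerged arrays its adjusted p was 0.104. The hour of harvest of the day 0 plants is not stated, so its part in the clock genes' values was not tested.

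Among the sugar transporter genes, SWEET15 read 6.58 and 6.05 in M202 and 7.33 and 8.16 in M202(Sub1), a difference of 1.43 ± 0.32 that did not pass the test (adjusted p = 0.154). The other 13 tested members of that list lay between -0.22 and 0.23.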
